A study of Arabidopsis thaliana with 24 samples.

Results

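The leaf and the root of a seedling carry the same genome and differ in which genes they transcribe. Here that difference was measured in wild type Arabidopsis thaliana with phosphate (Pi) supplied, by setting 3 arrays of shoot RNA against 3 arrays of root RNA, 6 of the 24 arrays of a series on Pi starvation. Members were taken by their titles (wild type shoots at +Pi and wild type roots at +Pi). The plants were of the Columbia-0 accession, had no mutation or transgene, and grew for 7 days on solid Johnson medium with 2 mM Pi and 2% sucrose. Shoots and roots were processed separately, and the 3 samples of each organ were independent replicates. Whether a shoot and a root sample came from the same plants is not given in the sources used here. The 18 other arrays are of shoots and roots in medium without Pi (0 mM), from wild type plants and from plants labelled phr1 and phr1 phl1, mutants in transcription factors of the Pi starvation response, with 3 arrays for each organ and genotype.

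Each array measured 22746 Arabidopsis probe sets (Affymetrix ATH1). Values are log2 signals made by RMA, a method that corrects the background, scales arrays to each other and summarises the probes of a probe set, so that a difference of 1 is a change of 2-fold. The files hold no detection calls, and signals of different probe sets are not set against each other. RNA of a whole organ was hybridised, and in such samples fewer cells of a type and less RNA per cell cannot be told apart.

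As background, shoots hold green tissue, in which thylakoid membranes capture light and the stroma of the chloroplast fixes carbon dioxide in the Calvin cycle. The photosynthetic machinery is built from proteins of both the nuclear and the chloroplast genome. Roots have no light to capture in soil and instead take up water and minerals, in part through root hairs, and their walls and defence compounds differ from those of leaves.

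The labels were checked against cell type markers. Of 41 markers, 5 had a probe set that could be named. RCA, the activase of the carbon-fixing enzyme Rubisco and a marker of leaf mesophyll, had signals of 12.64, 12.85 and 12.54 in shoots, against 6.61, 7.75 and 6.46 in roots. FAMA (listed as FMA), a regulator of the last division that makes guard cells, had 5.77, 5.08 and 6.06 in shoots, against 3.51, 3.34 and 3.44 in roots. Both were higher in every shoot array than in any root array. The root hair expansins EXPA7 and EXPA18, which loosen walls, showed the opposite order. EXPA7 had 4.03, 4.04 and 3.58 in shoots, against 7.64, 6.95 and 6.27 in roots. EXPA18 had 4.47, 4.46 and 4.11 in shoots, against 8.02, 7.33 and 6.61 in roots. In both, root array 3 was the lowest root array and still above all shoot arrays. IRX3, a cellulose synthase of xylem walls, which both organs form, had 4.73, 4.63 and 4.98 in shoots, against 5.95, 6.02 and 5.88 in roots. The other markers had no probe set that could be named and were not analysed here.

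The 2 organs were far apart as a whole. The correlation of signals over all probe sets was 0.80 to 0.82 between a shoot and a root array, and its lowest value was 0.98 within shoots and 0.99 within roots. The median standard deviation over 3 arrays was 0.16 in shoots and 0.14 in roots (log2). An organ difference was called when it was larger than 2-fold with an adjusted p under 0.05 (limma, Benjamini-Hochberg over all probe sets). By this rule 2672 probe sets were higher in shoots than in roots (11.7% of those tested) and 2649 were lower (11.6%), together 23.4%. List counts at +Pi below are to be read beside these shares. In 5540 probe sets (24.4%) all shoot arrays were above all root arrays, and in 7643 (33.6%) all were below, together 58.0%, so that a lack of overlap alone is common here. The median difference over all probe sets was -0.03. The balance of the 2 directions depended on the scale: 50.2% of the called probe sets were higher in shoots, and 64.0% (3234 higher and 1823 lower) when each array was centred on 6 reference genes, which adds 0.29 to every log2 difference and moves the median over all probe sets to 0.26.

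The large differences lay more often on the shoot side. More than 16-fold, 374 called probe sets were higher in shoots and 143 lower, and more than 64-fold, 62 were higher and 2 lower. Of the 374, 90 had a root mean among the dimmest 0.25 of root signals, and of the 143, 20 had a shoot mean among the dimmest 0.25 of shoot signals. For such probe sets the ratio says little beyond the signal of the brighter organ, since the dimmer one lies near the floor of the array.

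**Figure D1:**
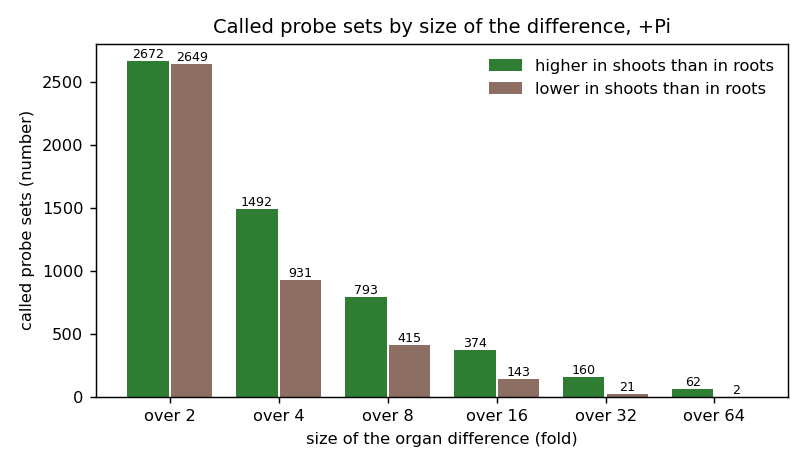
Number of called probe sets (y axis) whose organ difference at +Pi exceeds a given fold (x axis), higher in shoots than in roots (green) and lower in shoots than in roots (brown). The counts are alike at 2-fold, with 2672 higher and 2649 lower, and differ at every larger size, with 1492 higher and 931 lower above 4-fold and 374 and 143 above 16-fold.

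Some arrays stood a little apart, which touches single values below. Root array 2 had more signal of nuclear photosynthesis genes than the other root arrays: the mean over 10 such probe sets was 11.09, 11.43 and 11.1 in the 3 shoot arrays, against 5.68, 6.48 and 5.41 in the 3 root arrays. Shoot array 2 had more signal of class III peroxidases, with a mean over 16 probe sets of 5.94, 6.57 and 5.76 in shoots, against 9.59, 9.47 and 8.91 in roots. Without shoot array 2 and root array 2 together, a setting chosen after the values were seen, 2698 probe sets were higher in shoots and 2740 lower. The 3′ to 5′ signal difference of the GAPDH control probe sets, which reads RNA integrity, was 0.96 to 1.45 in shoots and 0.57 to 1.02 in roots, and that of the actin probe sets was 3.56 to 4.16 in shoots and 3.72 to 3.95 in roots. The part of RNA integrity in the results was not tested.

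The gene with the highest ratio among those that could be named was TGG2 (AT5G25980), a myrosinase, the enzyme that cleaves glucosinolates when a leaf is wounded. Its signals were 11.43, 11.65 and 11.94 in shoots, against 2.51, 2.61 and 2.87 in roots (log2 difference 9.01, standard error 0.3, adjusted p = 4.26e-15). The probe set is of a kind whose probes can match more than 1 transcript, so a share of this signal may belong to a close relative. GER3, a germin-like protein of the cell wall, had 12.48, 11.74 and 12.45 in shoots, against 3.36, 3.66 and 3.65 in roots (log2 difference 8.67, standard error 0.37). Both were bright in every shoot array and near the floor in every root array. CCL had a log2 difference of 8.17 and ECS1 of 8.02. CA2, a carbonic anhydrase, which interconverts carbon dioxide and bicarbonate, had one of 8.05. Chloroplast proteins among the 15 highest were LrgB, a carrier of the inner chloroplast envelope that exports glycolate made in photorespiration (6.38), and CaS, a calcium-binding protein of thylakoids (6.03), along with members of the groups below.

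**Figure D2:**
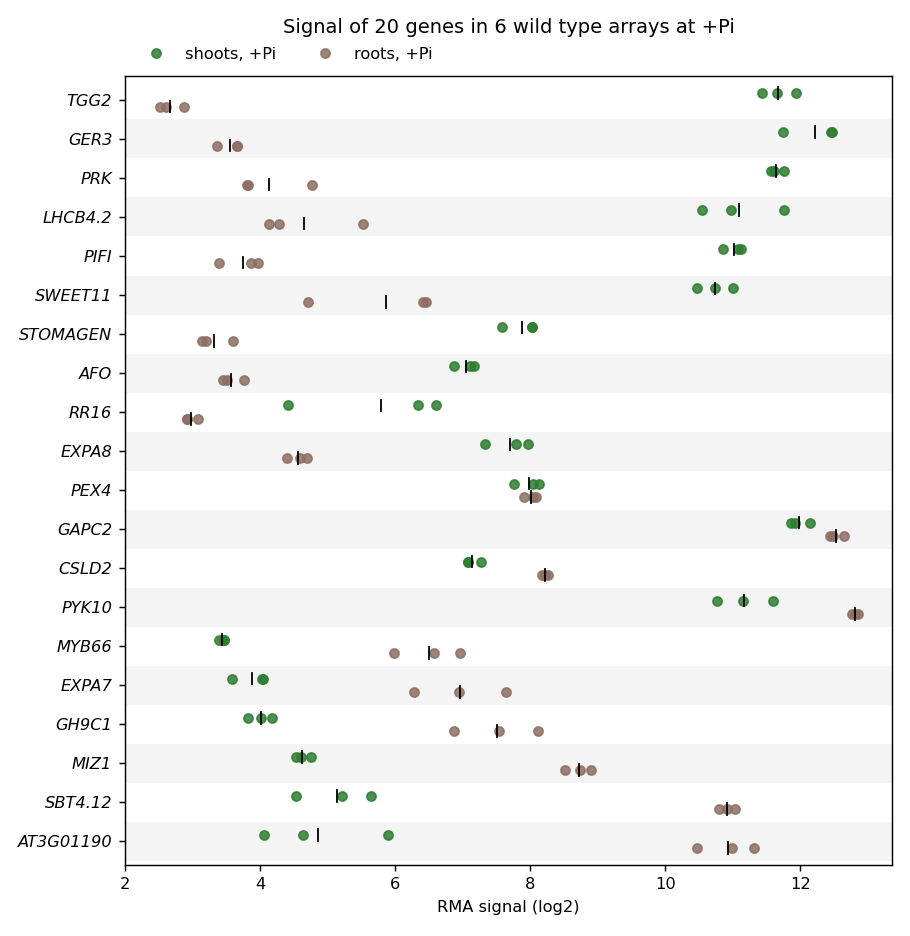
RMA signal (log2, x axis) of 20 genes in the 3 shoot arrays (green, upper row of each gene) and the 3 root arrays (brown, lower row) of wild type plants at +Pi, with the mean of each group as a black tick. Genes at the top, such as TGG2 with shoot signals above 11, have the higher signals in shoots, those at the bottom in roots, and for PEX4 the 2 groups overlap.

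Of 48 listed nuclear genes of the photosynthetic light reactions 10 had a named probe set. All 10 were called higher in shoots, beside 11.7% of all probe sets. Their median log2 difference was 5.36, beside -0.03 over all probe sets. LHCB4.2, which encodes a minor light-harvesting protein of photosystem II, had signals of 10.55, 11.76 and 10.97 in shoots, against 4.27, 5.52 and 4.13 in roots (log2 difference 6.45, standard error 0.32, adjusted p = 1.21e-12). Root array 2 gave the highest root signal for this gene. PSAN and PSAE-1, subunits of photosystem I, had log2 differences of 6.41 and 6.13. PSBY, of photosystem II, had one of 5.95, and NPQ4, the PsbS protein that dissipates excess light as heat, one of 5.59. ATPC1, the gamma subunit of the chloroplast ATP synthase, differed by 5.12. The smallest differences of the group were those of LHCB4.1 (4.7), Lhca5, an antenna protein of photosystem I (4.53), and LHCB4.3 (3.76), so that even the lowest of the 10 was above 8-fold.

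Factors that assemble thylakoid complexes, and nuclear subunits of the NDH complex, which cycles electrons around photosystem I, followed the same direction in 20 of 23 probe sets, with none lower. PIFI, which acts with the NDH complex, had 11.08, 10.86 and 11.13 in shoots, against 3.39, 3.96 and 3.86 in roots (log2 difference 7.29, standard error 0.22). NdhL differed by 5.82 and PSB27, which binds photosystem II during its repair, by 5.75. At the lower end, LPA66, an editing factor for a photosystem II transcript, differed by 1.03, close to the limit of the call, which it lost without root array 2 (0.98). Pnsl5 (0.96) and CRR4, an editing factor for an NDH transcript (0.69), were not called, although all their shoot signals were above all their root signals, and Pnsl5 was called without shoot array 3 (1.03), without root array 1 (1.0), and with arrays centred on their medians (1.04) or on the reference genes (1.25).

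Of 23 genes in the Calvin cycle list 8 had a named probe set, and all 8 were higher in shoots (median log2 difference 3.14). PRK, the phosphoribulokinase that makes the acceptor of carbon dioxide, had 11.57, 11.76 and 11.62 in shoots, against 3.82, 4.76 and 3.8 in roots (log2 difference 7.52, standard error 0.27, adjusted p = 1.49e-14). SBPASE, the sedoheptulose-bisphosphatase of the cycle, differed by 6.81 and RCA by 5.74. Regulators and chaperones differed less: 3.16 for TRXF2, a thioredoxin that activates cycle enzymes in light, and 2.73 for RbcX2, a chaperone in the assembly of Rubisco. CSK, a chloroplast sensor kinase that is in this list but is no enzyme of the cycle, differed by 2.61. In photorespiration, which recycles the product of oxygen fixation, HPR, the peroxisomal hydroxypyruvate reductase, had 11.22, 11.44 and 11.38 in shoots, against 4.62, 5.1 and 4.57 in roots (log2 difference 6.58, standard error 0.16). AT1G80380, a glycerate kinase, differed by 2.62 and AT1G11860, a subunit of glycine decarboxylase, by 2.4. SHM2, a mitochondrial serine hydroxymethyltransferase, had 8.12, 7.88 and 7.7 in shoots, against 8.86, 8.55 and 8.71 in roots. All shoot arrays were lower, and the log2 difference of -0.81 reached neither 2-fold nor an adjusted p under 0.05 (limma). GLU1, the ferredoxin-dependent glutamate synthase that reassimilates the ammonium released in photorespiration, differed by 5.64.

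Of the chlorophyll synthesis genes 13 of 15 were higher in shoots (median log2 difference 3.23). LIL3:1, a light-harvesting-like protein needed for the late steps, had 10.02, 10.19 and 10.21 in shoots, against 3.99, 4.6 and 4.32 in roots (log2 difference 5.84, standard error 0.2). PORB, a protochlorophyllide oxidoreductase that needs light, differed by 4.85, CHLI2, a subunit of magnesium chelatase, by 4.69, and CHLM, the methyltransferase of the next step, by 3.79. GSA1, in the early part of the pathway shared with haem, differed by 1.75, the smallest of the called members. HEMA2 and HEMA3, glutamyl-tRNA reductases at the entry of the pathway, were not called.

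Probe sets of the chloroplast genome also had higher signals in shoots, by less than the nuclear photosynthesis genes and with more spread between root arrays. How well the labelling took up transcripts of organelles was not tested. Of probe sets for photosynthesis genes 39 of 43 were called higher (median log2 difference 2.88) and of other chloroplast genes 17 of 28 (median 1.94), with none lower in either group. psbA, the D1 protein of photosystem II, had 12.37, 12.4 and 12.71 in shoots, against 6.27, 7.06 and 7.66 in roots (log2 difference 5.5, standard error 0.77). For psaA, a core protein of photosystem I, the signals were 10.78, 10.39 and 10.58 in shoots, against 5.13, 5.0 and 6.52 in roots (log2 difference 5.03, standard error 0.58). The NDH subunits ndhK and ndhJ differed by 4.77 and 4.63, the value of ndhJ being 5.32 without root array 3. Outside photosynthesis proper the highest values were those of ycf4 (2.92), which assembles photosystem I, cemA (2.9) and ccsA (2.83), a factor of cytochrome maturation. The mean over the 43 photosynthesis probe sets was 9.99, 9.9 and 10.17 in the shoot arrays, against 6.64, 6.94 and 8.03 in the root arrays. Root array 3 thus lay nearer to the shoots than the other root arrays, and without it the median log2 difference was 3.2, with 39 called as before. In the other chloroplast group the count of 17 was 12 without root array 1 and 18 without root array 3.

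Signals of mitochondria-encoded probe sets did not follow. None of the 56 named probe sets was called at +Pi, with log2 differences between -0.83 and 0.67 and a median of -0.07. By the adjusted p alone 3 were higher in shoots, beside 19.4% of all probe sets (27.7% were lower). Their mean signal was 4.36, 4.35 and 4.34 in the shoot arrays, against 4.16, 4.23 and 4.72 in the root arrays, where array 3 was again the highest. Without root array 3 the median log2 difference was 0.099. These means lay below the median signal of each array (5.29 to 5.38), and how far dim signals hid a difference was not tested.

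**Figure D3:**
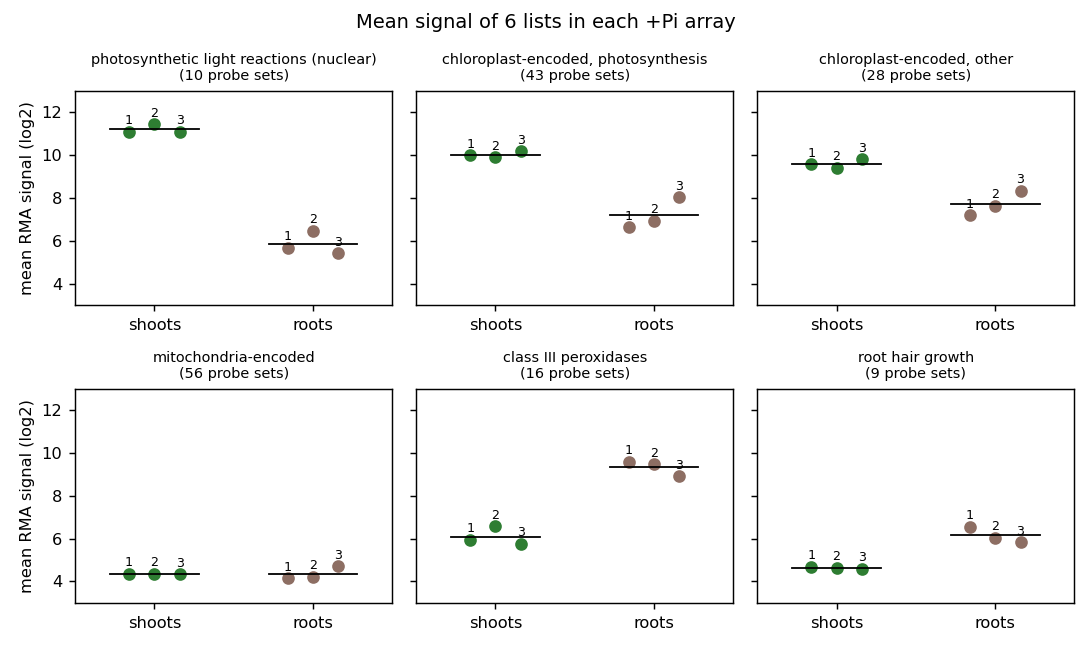
Mean RMA signal (log2, y axis) over the probe sets of 6 lists in each wild type +Pi array, shoots (green) left of roots (brown), with the replicate number above each point and a line at the group mean. Root array 2 is the highest root array for nuclear photosynthesis genes (6.48), and root array 3 for chloroplast-encoded genes (8.03 and 8.34).

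Transcription factors of leaf and shoot apex development gave a mixed picture, with 9 of 26 higher in shoots, 3 lower and the rest not called. Of all probe sets 11.7% were higher and 11.6% lower. The YABBY factors, which mark the lower side of lateral organs, led the list. AFO (FILAMENTOUS FLOWER) had 7.1, 7.17 and 6.87 in shoots, against 3.51, 3.44 and 3.76 in roots (log2 difference 3.48, standard error 0.2), and YAB3 and YAB5 differed by 2.94 and 2.87. TCP24, which restrains growth at the leaf margin, differed by 2.35 and NGA1, which shapes leaves and flowers, by 2.02. The 3 lower members were LEP, an AP2-type factor named for a leafy petiole phenotype (-2.81), AN3, a growth coactivator of leaves (-1.42), and PTL, a trihelix factor known for petal growth (-1.42). Their names come from shoot phenotypes, and yet their signals were higher in roots in every array. In the stomatal lineage, STOMAGEN, the secreted peptide by which mesophyll promotes stomata, had 8.02, 7.58 and 8.03 in shoots, against 3.2, 3.13 and 3.59 in roots (log2 difference 4.57, standard error 0.21). SPCH, which starts the lineage, differed by 1.62 and FAMA by 2.21. A total of 3 of 4 members were called, all higher in shoots.

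On the root side, SBT4.12, a subtilisin-type protease, had the largest difference among the genes with a symbol that were lower in shoots, with 5.21, 5.64 and 4.53 in shoots, against 10.92, 10.8 and 11.03 in roots (log2 difference -5.78, standard error 0.35, adjusted p = 2.40e-11). PDF2.5, a plant defensin, had 3.42, 3.94 and 3.48 in shoots, against 8.81, 8.21 and 8.9 in roots (log2 difference -5.03, standard error 0.31). MSL9, a mechanosensitive ion channel, differed by -4.98. All 3 were bright in each root array. Structural proteins of the cell wall were among them, with -4.61 for the extensin EXT13 and -3.94 for the hydroxyproline-rich glycoprotein HRGP1, whose probes may match related genes. The SKU5-similar proteins sks15 and sks16 differed by -4.11 and -3.95. AHL22, a DNA-binding protein with an AT-hook, differed by -4.16, LTI30, a dehydrin induced by cold, by -3.9, and PR-1-LIKE by -3.83. Conjugating enzymes were also among the 15 lowest: the glutathione transferase GSTU22 (-4.29) and the glycosyltransferases UGT71C1 (-4.18) and UGT72E2 (-3.74), of which UGT72E2 glucosylates the alcohols that form lignin.

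Genes of root hair growth were lower in shoots in 5 of 9 cases (beside 11.6% of all probe sets), with none higher and a median log2 difference of -1.08. GH9C1, an endoglucanase, had 3.82, 4.01 and 4.17 in shoots, against 8.12, 7.54 and 6.87 in roots (log2 difference -3.51, standard error 0.24). EXPA7 and EXPA18 differed by -3.07 and -2.97. XTH26, a xyloglucan endotransglucosylase of hairs, had 3.32, 3.38 and 3.16 in shoots, against 6.12, 3.93 and 4.24 in roots, and its call rested on root array 1, without which its difference was -0.80. CSLD2, a cellulose synthase-like protein of tip growth that other cells also use, differed by -1.08, a call that was lost (-0.79) with arrays centred on the reference genes. PIP5K3, a lipid kinase at the hair tip, differed by -0.88 and was not called.

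Of 17 listed root patterning factors 3 had a named probe set, and all 3 were lower in shoots. MYB66 (WEREWOLF), which sets hairless cell fate in the root epidermis, had 3.46, 3.38 and 3.47 in shoots, against 6.58, 5.98 and 6.96 in roots (log2 difference -3.07, standard error 0.31). The MADS-box genes AGL21 and AGL42 differed by -2.22 and -2.36. In the wider list of root and lateral root development 9 of 21 were lower in shoots and 1 higher (median -0.78). MIZ1, which is required for bending towards water, had 4.6, 4.52 and 4.74 in shoots, against 8.91, 8.51 and 8.74 in roots (log2 difference -4.1, standard error 0.24). UPB1, a regulator of peroxidases at the edge of the meristem, differed by -3.18. The auxin repressors IAA28 and IAA14, whose gain-of-function mutants form few lateral roots, differed by -3.35 and -1.73, and LRP1, named for lateral root primordia, by -1.53. The exception was RGF6, of the root meristem growth factor peptides, with 7.44, 7.25 and 7.1 in shoots, against 3.91, 4.44 and 4.19 in roots (log2 difference 3.08, standard error 0.18): it was bright in the organ that its family name does not point to.

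Class III peroxidases are secreted haem enzymes that cross-link or loosen walls. Of 22 listed 16 had a named probe set, and 13 of these were lower in shoots (beside 11.6% of all probe sets). Their median was the lowest of the lists (-4.29). Like the others, this list was chosen with earlier results of these data known. AT3G01190 had 4.63, 5.89 and 4.06 in shoots, against 11.31, 10.48 and 10.998 in roots (log2 difference -6.07, standard error 0.4, adjusted p = 8.54e-11). AT5G66390 (PRX72) had 3.03, 3.97 and 3.73 in shoots, against 8.91, 8.89 and 8.81 in roots (log2 difference -5.29, standard error 0.29). AT4G26010 and AT4G30170 differed by -5.21 and -5.18. Shoot array 2 gave the highest shoot signal for each of these 4 genes. Without it AT4G26010 differed by -5.8, and without the 2 arrays numbered 2 the list had 13 lower calls and a median of -4.49. A pair of members ran the other way: AT5G64120, with 8.83, 9.13 and 8.59 in shoots, against 6.35, 6.19 and 5.94 in roots (log2 difference 2.69, standard error 0.22), and AT1G71695 (2.32). PRXR1 differed by -0.48 and was not called. Prx37, a peroxidase named among the 15 lowest genes, differed by -4.45.

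**Figure D4:**
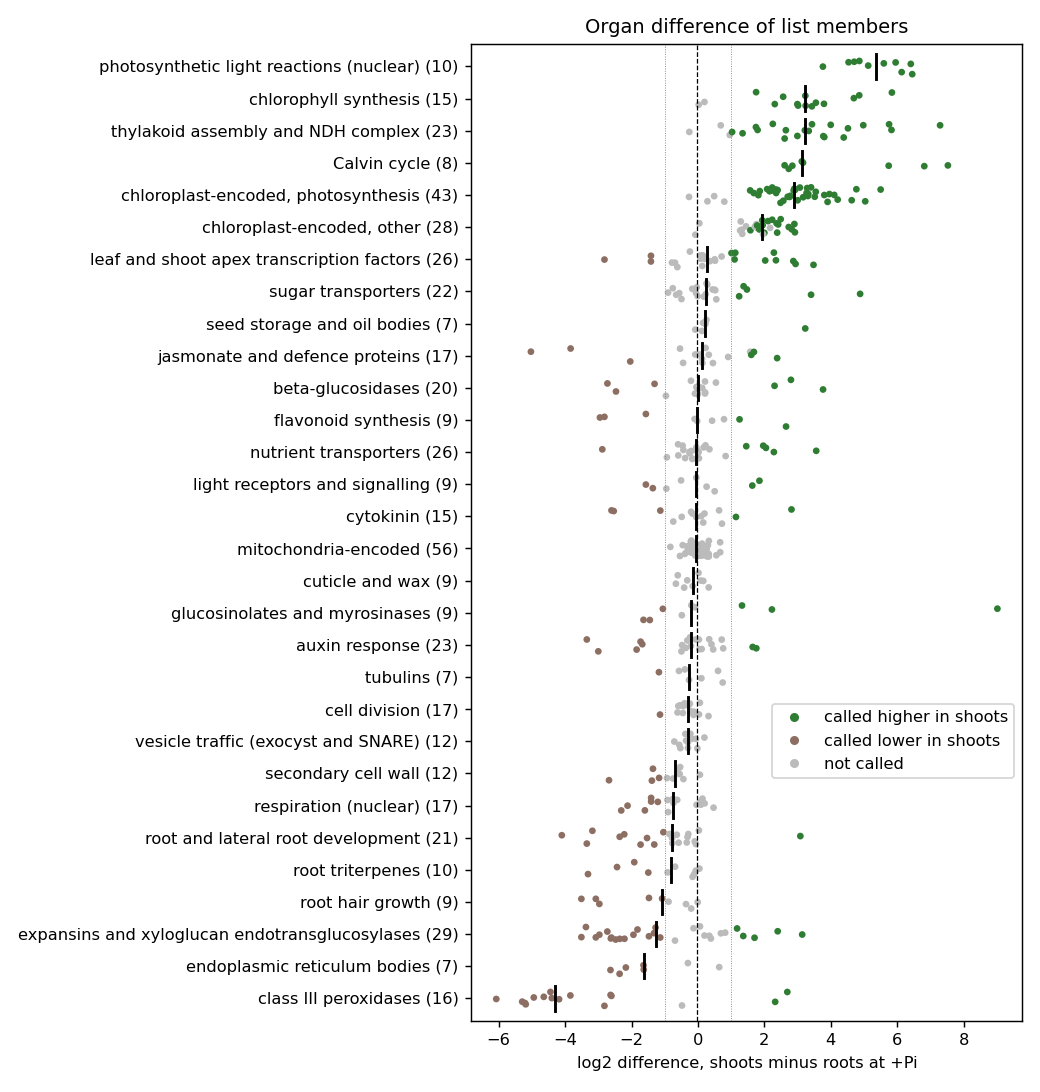
Log2 difference, shoots minus roots at +Pi (x axis), of the members of the 30 lists with at least 7 probe sets (y axis, number of probe sets in brackets), with a black bar at each list's median and members called higher in shoots in green, called lower in brown and not called in grey. The dashed line is the median over all probe sets (-0.03) and the dotted lines are the limits of 2-fold, and medians run from 5.36 for nuclear photosynthesis genes to -4.29 for class III peroxidases.

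Chemical defence was split between the organs. Myrosinases and glucosinolate genes had 3 members higher and 3 lower of 9, beside 11.7% and 11.6% of all probe sets. On the shoot side, beside TGG2, stood AOP1, of the family that modifies glucosinolate side chains (2.23), and GTR1, a glucosinolate importer (1.33). PYK10, a beta-glucosidase stored in endoplasmic reticulum bodies, had 10.76, 11.6 and 11.15 in shoots, against 12.77, 12.85 and 12.81 in roots (log2 difference -1.64, standard error 0.19), so that it was bright in both organs and higher in roots. BCAT4, the aminotransferase at the entry to methionine-derived glucosinolates, differed by -1.45, and UGT74B1, a glucosyltransferase of their core pathway, by -1.06, a call that was lost with arrays centred on their medians (-0.98) and without shoot array 1 (-0.69). Proteins of the endoplasmic reticulum bodies, spindle-shaped stores of such enzymes, were lower in shoots in 5 of 7 cases. PYK10 is among these and is thus counted in both lists. Others were NAI2, which forms the bodies (-2.36), the regulator NAI1 (-1.63), and the lectins JAL34 and JAL33, which bind PYK10 (-2.63 and -2.17). In wild type plants without Pi 2 of the 7 were called higher in shoots and 2 lower, with a median of -0.20.

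Triterpene genes of the root gene clusters were lower in shoots in 4 of 10 cases. PEN1, an oxidosqualene cyclase, had 2.95, 2.85 and 3.06 in shoots, against 5.13, 5.24 and 5.8 in roots (log2 difference -2.44, standard error 0.14), AT5G47980, an acyltransferase-type gene of the thalianol cluster, differed by -3.31 and the cytochrome P450 CYP705A4 by -1.92. The other 6 members were not called. Among jasmonate and defence proteins 3 of 17 were higher and 3 lower, beside 11.7% and 11.6% of all probe sets, and 5 higher and 3 lower with arrays centred on the reference genes. PDF1.2b, induced by jasmonate, differed by 2.38, beside -5.03 for PDF2.5. The probes for PDF1.2b may also match its near copies.

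In the flavonoid pathway 2 members were higher and 3 lower of 9, beside 11.7% and 11.6% of all probe sets. MYB12, an activator of flavonol synthesis, had 3.94, 4.41 and 3.93 in shoots, against 6.86, 7.58 and 6.69 in roots (log2 difference -2.95, standard error 0.26), and CHIL, which assists chalcone synthase, differed by -2.82, and by -3.43 without shoot array 2. The flavonol glycosyltransferases went in opposite directions. UGT78D1, a rhamnosyltransferase, had 7.54, 8.04 and 7.17 in shoots, against 4.51, 5.77 and 4.52 in roots (log2 difference 2.65, standard error 0.3). UGT78D2, a glucosyltransferase, had 6.74, 7.62 and 6.2 in shoots, against 8.43, 8.58 and 8.25 in roots (log2 difference -1.57, standard error 0.29). The groups did not overlap in either gene. Shoot array 2 was the highest shoot array for all 4 of these genes, and for DFR, an enzyme of the anthocyanin branch named here after its values were seen, it stood alone, with 3.46, 5.99 and 3.41 in shoots, against 3.1, 2.87 and 3.13 in roots. DFR was called higher in shoots (1.25, adjusted p = 0.0307), and without shoot array 2 its difference was 0.4 and not called. Beta-glucosidases showed 3 higher and 3 lower of 20, a share of calls near that over all probe sets, led by BGLU44 (3.76) on the shoot side and by BGLU15 (-2.73) and BGLU46 (-2.47) on the root side.

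Wall-loosening proteins were lower in shoots more often than higher, with 16 lower and 5 higher of 29 (median -1.28). XTH20, which acts on xyloglucan, had 4.79, 4.15 and 4.23 in shoots, against 8.21, 7.91 and 7.57 in roots (log2 difference -3.51, standard error 0.19), XTH19 differed by -2.73, and EXPA9 by -3.37. EXPA8 had 7.32, 7.79 and 7.97 in shoots, against 4.69, 4.59 and 4.4 in roots (log2 difference 3.14, standard error 0.38), and XTH16 differed by 1.7. EXPA16 had 6.86, 3.87 and 6.79 in shoots, against 3.16, 3.7 and 3.47 in roots, a difference of 2.4, with shoot array 2 near the root signals and 3.38 without it. Both families thus had members on either side, and which organ was brighter differed from gene to gene. In secondary walls 4 of 12 were lower in shoots (beside 11.6% of all probe sets) and none higher. IRX15-L, of xylan synthesis, differed by -2.68, CYP98A3, a hydroxylase of the lignin pathway, by -1.35, and IRX3 by -1.17. IRX3 lost its call with arrays centred on the reference genes (-0.88).

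Transport genes were called about as often as all probe sets (23.4%). Of mineral nutrient transporters 5 of 26 were higher in shoots and 1 lower. AT2G26690 (NPF6.2), of the nitrate transporter family, had 7.93, 8.75 and 8.25 in shoots, against 5.19, 4.63 and 4.44 in roots (log2 difference 3.56, standard error 0.29). OPT3, which moves iron in the phloem, differed by 2.28, CHX20, a cation exchanger of guard cells, by 2.05, PHT4;5, of a family of Pi carriers in plastids and Golgi, by 1.96, and the sulphate transporter SULTR3;1 by 1.45. SULTR3;5, which works with a sulphate transporter of root vasculature, had 4.16, 4.31 and 4.3 in shoots, against 7.09, 6.94 and 7.37 in roots (log2 difference -2.88, standard error 0.22) and was the lower one. The aquaporin TIP2;2 had 9.99, 9.88 and 9.88 in shoots, against 11.21, 10.31 and 10.98 in roots, just below the limit (-0.92) and called (-1.18) without root array 2. Among sugar transporters 5 of 22 were higher in shoots and none lower. SWEET11, which exports sucrose for phloem loading in leaves, had 11, 10.47 and 10.74 in shoots, against 6.45, 4.71 and 6.41 in roots (log2 difference 4.88, standard error 0.42), SWEET1 differed by 3.4 and SWEET10 by 1.47. SPX1, which senses Pi status and was measured here in fed plants, had 6.78, 7.18 and 6.4 in shoots, against 5.81, 5.87 and 5.43 in roots (log2 difference 1.08, standard error 0.3). Its call was marginal and was lost without shoot array 2 (0.89) or without root array 3 (0.95).

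In auxin response 2 of 23 genes were higher in shoots and 5 lower, beside 11.7% and 11.6% of all probe sets, and 4 higher and 5 lower with arrays centred on the reference genes. IAA18 differed by 1.76 and GH3.3, which conjugates auxin to amino acids, by 1.65, whereas GH3.17, of the same enzyme family, had 6.44, 6.47 and 6.41 in shoots, against 9.67, 9.18 and 9.47 in roots (log2 difference -3.0, standard error 0.16). In the cytokinin list 2 were higher and 3 lower of 15, again beside 11.7% and 11.6% of all probe sets. RR16, a response regulator, had 6.61, 4.41 and 6.33 in shoots, against 2.91, 3.07 and 2.92 in roots (log2 difference 2.81, standard error 0.36), with array 2 the lowest of the shoot arrays and a difference of 3.5 without it. ABCG14, the exporter that loads root-made cytokinin for transport to the shoot, had 5.65, 5.76 and 5.76 in shoots, against 8.12, 8.56 and 8.29 in roots (log2 difference -2.6, standard error 0.18), and the histidine kinase HK5 differed by -2.53. Of light signalling genes, CONSTANS (CO), which promotes flowering in long days, had 5.85, 3.63 and 5.11 in shoots, against 3.37, 2.94 and 3.37 in roots, a difference of 1.63 that was 2.25 without shoot array 2. Its relative COL1 differed by 1.85 and HYH, a bZIP factor of photomorphogenesis, by -1.57.

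Respiration and growth differed less between the organs than photosynthesis. Of nuclear respiration probe sets 6 of 17 were lower in shoots and none higher (median -0.75). NDB2, an alternative NADH dehydrogenase, had 5.46, 6.5 and 5.36 in shoots, against 8.26, 7.95 and 8.03 in roots (log2 difference -2.31, standard error 0.32), SDH1-2, a form of the large succinate dehydrogenase subunit, differed by -2.12, and CYTC-2, a cytochrome c, by -1.6. In the cell division list 1 of 17 was called, TOPII, which untangles DNA (-1.14), and of 7 tubulins 1, TUB1 (-1.17). Both calls were lost with arrays centred on the reference genes (-0.85 and -0.89), a setting in which the medians of these 2 lists were 0.0018 and 0.019, beside -0.29 and -0.27 as deposited. No member was called of 12 vesicle traffic genes, of 9 cuticle and wax genes or of 3 clock genes. Of 7 genes of seed stores 1 was called, AILP1 (3.23), an aluminium-induced-like protein that was placed in this list by its name.

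The 6 reference genes, often used to scale expression measurements, gave the scale of small differences. PEX4 (UBC21) had 8.13, 7.75 and 8.05 in shoots, against 8.08, 8.04 and 7.91 in roots, with overlapping groups and a log2 difference of -0.034. AT2G28390 (SAND) had 7.02, 6.92 and 7.03 in shoots, against 7.02, 6.98 and 7.14 in roots, again with overlap, and a difference of -0.057. YLS8 differed by -0.3, AT4G34270 (TIP41L) by -0.37, AT4G26410 (RHIP1) by -0.41 and GAPC2 by -0.55. None was called. PEX4 and AT2G28390 changed sign when arrays were centred on their medians, while the other 4 had all shoot arrays below all root arrays. Every gene above that is described as called had an adjusted p of at most 0.00488 (limma), DFR excepted, and signals that did not overlap between the 3 shoot and the 3 root arrays.

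Whether these differences were seen in other plants of the same age was read in arrays without Pi, which enter the contrast at +Pi only through the shared estimate of spread. In wild type plants without Pi, 1995 of the 2672 probe sets that were higher in shoots at +Pi were again called higher (74.7%, beside 12.2% of all probe sets called higher there), and 1795 of the 2649 lower ones were again lower (67.8%, beside 14.4%). In the phr1 mutant without Pi the counts were 2118 (79.3%, beside 11.6% of all probe sets) and 2001 (75.5%, beside 13.9%). Only 39 probe sets were called in opposite directions at the 2 Pi levels, 37 of them lower in shoots at +Pi and higher at -Pi. UGT78D2 was one of these, with -1.57 at +Pi and 1.64 at -Pi. The 6 arrays labelled phr1 phl1, in which the signal of PHL1 lay between 7.06 and 9.31, against 4.34 to 6.06 in the 18 other arrays, were not used for this and enter only the estimate of spread. According to the paper the phl1 T-DNA insertion disrupts the coding part of the PHL1 transcript. Which part the probe set reads, and so what its signal says of the label, was not tested. With the 12 wild type arrays alone, 2664 probe sets were higher in shoots at +Pi and 2672 lower.

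The difference between the organ contrasts at the 2 Pi levels was itself called for 2389 probe sets (10.5%). Among the 5321 probe sets called at +Pi it was called for 1381. DFR had the most negative value among the genes named above, with log2 differences of 1.25 at +Pi and 6.97 at -Pi (-5.72), and EXPA8 the highest, with 3.14 at +Pi and -0.25 at -Pi (3.39). The medians of photosynthesis lists moved in both directions. In the light reaction, Calvin cycle and chloroplast-encoded lists the share called for the difference was near or below the 10.5% over all probe sets. The median log2 difference was 5.36 at +Pi and 5.61 at -Pi for nuclear light reaction genes (1 of 10 called for the difference), and 3.14 and 2.85 for the Calvin cycle (1 of 8). It was 3.22 at +Pi and 2.16 at -Pi for thylakoid assembly and the NDH complex (4 of 23), and 3.23 and 2.41 for chlorophyll synthesis (5 of 15). For chloroplast-encoded photosynthesis genes it was 2.88 and 3.86 (2 of 43), and 3.2 at +Pi without root array 3.

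**Figure D5:**
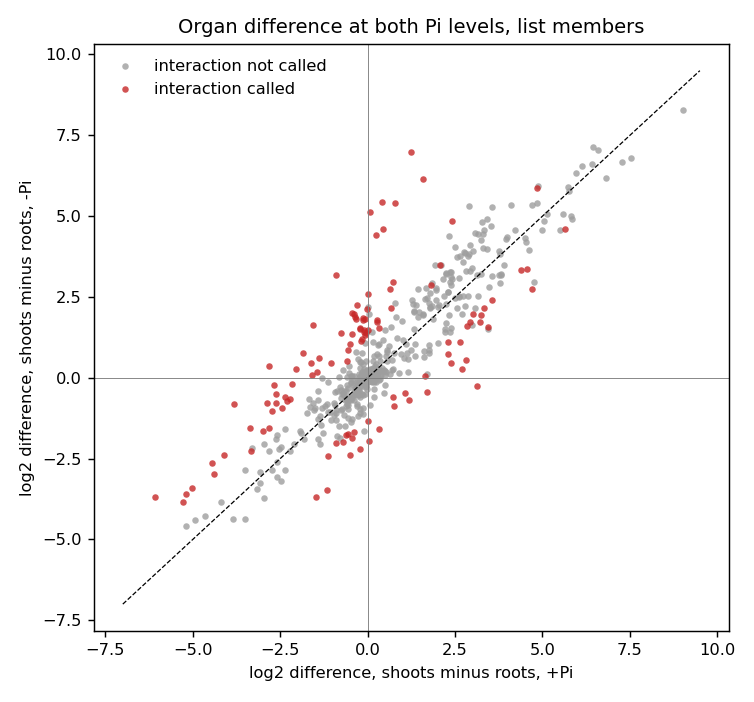
Log2 difference, shoots minus roots, of 549 list members in wild type plants at +Pi (x axis) and at -Pi (y axis), with the line of equality dashed and the 112 members in red whose 2 differences were called unequal. The 112 are a larger share of the 549 than the 10.5% called over all probe sets, although most members were not called. EXPA8 (3.14 at +Pi and -0.25 at -Pi) is among the points far below the line.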

How the data were processed

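Deposited values are log2 signals of 24 Affymetrix ATH1 arrays, which the authors obtained by RMA (version not given in the sources used here). Whether shoots and roots were scaled together is not given in the sources used here, and scaling to 1 distribution sets organ differences relative to the whole array. The 64 spike and control probe sets were dropped, and limma 3.58.1 (R 4.3.3) estimated 8 group means over the 24 arrays for each of the other 22746, as the study's methods name limma with 2-fold and a Benjamini-Hochberg adjusted p under 0.05. The fit was tested on simulated data. Standard deviations are over 3 arrays, whose number limits the precision. Of the probe sets, 14238 matched 1 gene (13513 by the platform table, 725 by identifiers listed with the paper), 503 several and 8005 none, and symbols follow RefSeq (TAIR10.1). Among called probe sets 1214 of the higher and 1139 of the lower have no single name and are counted only. List counts are out of members with a named probe set, which for some lists are few of those listed.

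Named genes are the 15 called probe sets at either end among those with a symbol, members of each list from both ends (up to 4 and 3), reference genes and markers, with examples of these described. Members and lists were chosen with earlier results of these data known, and some lists and members were added once it was known which probe sets have names. Alternatives were other arrays in the fit, the replicate number as a block, 3 centrings, a filter on dim probe sets, other variance models and thresholds, 1 probe set per gene, organelle-encoded probe sets left out, and each array left out in turn. Sequences, coordinates, promoter motifs and paralogue pairs, none of which had both members named, were not analysed here.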

Additional observations from a re-analysis of the deposited data

Results flagged for a closer look

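Each of the following genes had an organ difference that was called unequal at the 2 Pi levels in wild type plants (more than 2-fold, adjusted p under 0.05, limma, over all probe sets). This concerned 49 of 163 named genes, 18 with a higher and 31 with a lower value at +Pi, beside 2389 of all probe sets (10.5%). Most named genes were called at +Pi (82 higher and 69 lower), and many were picked by the size of that difference, which enters the value. The closer comparison is with the 5321 probe sets called at +Pi, of which 1381 were called unequal at the 2 Pi levels. Each value below is the log2 difference between shoots and roots at +Pi minus that at -Pi.

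Among photosynthesis, chloroplast and nitrogen genes the values were 1.63 for CA2, 1.94 for CHLI2 and 1.02 for GLU1. In leaf, stomatal and light genes they were 1.49 for CCL, 1.21 for STOMAGEN, 1.22 for YAB3, 1.59 for CO and -1.26 for LEP. In root development and hormone genes they were 2.27 for RR16, -1.71 for MIZ1, -1.1 for IAA28, -1.36 for GH3.17 and -1.51 for AHL22. Wall genes had both the highest value of all and negative ones, with 3.39 for EXPA8, 2.2 for XTH26, -1.81 for EXPA9, -1.7 for XTH19, -2.45 for EXPA16, -2.46 for IRX15-L and -1.49 for UGT72E2. Peroxidases had 2.41 for AT5G64120, -2.38 for AT3G01190, -1.59 for AT4G30170 and -1.44 for AT5G66390, so that 3 of these 4 were further below the roots at +Pi than at -Pi. Glucosinolate and endoplasmic reticulum body genes had -2.08 for NAI1, -1.97 for JAL33, -1.63 for BCAT4 and -1.52 for UGT74B1. In flavonoid and triterpene genes the values were -5.72 for DFR, -3.21 for UGT78D2, -3.19 for CHIL and -1.52 for PEN1. Conjugating enzymes and cytochromes P450 had 2.59 for CYP71B22, -1.47 for UGT88A1 and -1.28 for UGT71C1. Among defence and stress proteins they were 1.94 for PDF1.2b, 1.29 for AILP1, -3.03 for PR-1-LIKE, -2.16 for LTI30, -1.7 for SBT4.12 and -1.63 for PDF2.5. Transport and Pi genes had 1.56 for SPX1, 1.09 for TIP2;2, -2.1 for SULTR3;5 and -1.05 for MSL9. Respiration, division and tubulin genes had 2.29 for TUB1, 1.26 for TOPII, -1.58 for NDB2 and -1.68 for CYTC-2. The sign of the organ difference was not the same at the 2 Pi levels in 8 of these genes. Of them UGT78D2 was called at both levels, with -1.57 at +Pi and 1.64 at -Pi, and CHIL, NAI1, CYTC-2, BCAT4, UGT74B1, SPX1 and EXPA8 were called at +Pi only. Groups of 3 arrays are too small for a search for single outlying arrays.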

How the results depend on the processing

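The counts over all probe sets that were recomputed with other arrays, centrings, filters on dim probe sets or variance models stayed within 1.5 times the main value, except as follows. The counts at -Pi and of the dependence on Pi were not recomputed with the reference genes. By the adjusted p alone 4421 probe sets were higher in shoots and 6302 lower, at more than 4-fold 1492 and 931, and by a test against a 2-fold change (treat) 1353 were lower, with 1822 higher. With 1 probe set per gene, which leaves 14080 to test, 1446 were higher and 1505 lower. Leaving out 1 array at a time gave 2642 to 2705 higher, 2597 to 2741 lower, 3717 to 3826 called the same way at -Pi, and 2204 to 2594 whose organ difference depended on Pi. Centring on array medians gave 2804 and 2409, and on PEX4, AT2G28390, AT4G34270 and YLS8 alone 3024 and 2048.

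Same-numbered shoot and root arrays had deviations that correlated by 0.064, 0.18 and 0.13, and differently numbered ones by -0.15 to 0.096. The replicates were spread over time, as given at the start, but whether equal numbers mark a shared batch was not tested. The main fit had no block. With the replicate number as a block, 2675 were higher and 2648 lower over 24 arrays, 2668 and 2679 over the 6 arrays, 3792 were called the same way at -Pi and 2403 depended on Pi. The block changed no call of a named gene other than that of DFR, which was lost over the 6 arrays (adjusted p = 0.128).

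Of the named genes, PEX4 turned sign to 0.043 with arrays centred on medians, 0.25 on the reference genes, 0.16 on these 4 genes, 0.023 with array weights, 0.092 without the 2 arrays numbered 2, and 5.5e-05 without root array 1. It ran between -0.11 and 0.077 when single arrays were left out. AT2G28390 turned to 0.021, 0.23 and 0.14 under the 3 centrings. The calls of single genes that changed are given beside those genes or here: UGT74B1, TOPII, TUB1, IRX3 and CSLD2 lost theirs under the reference centrings, and DFR and XTH26 lost theirs with the 6 arrays alone. DFR also lost its call with the 12 wild type arrays, with array weights and without any 1 of the root arrays, and SPX1 with array weights. Small list counts moved more, and the following are examples. With arrays centred on the reference genes auxin response had 4 higher, jasmonate and defence 5 higher, light signalling 1 lower (2 of 9 in the main fit), and cell division and tubulins 0 lower, with 1 tubulin higher. Other lists moved too, among them other chloroplast genes (20 higher) and wall-loosening proteins (6 higher and 14 lower). When single arrays were left out, the flavonoid list had 1 higher without shoot array 2 or any 1 root array. Nutrient transporters had 2 lower without shoot array 2, root array 2 or root array 3. Light signalling had 1 lower without shoot array 1 or 3 and 3 lower without shoot array 2. Sugar transporters had 1 lower without shoot array 2 or root array 3, mitochondria-encoded probe sets had 1 lower without root array 1 or 2, and clock genes had 1 higher without root array 2. The number of arrays, and the floor of dim probe sets, limit the precision of ratios.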

Other observations

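Families were also read by the stem of the gene symbol, among stems with at least 8 named probe sets, and the families and members described here were chosen after their values were seen. Tau glutathione transferases, which conjugate glutathione to toxic or reactive compounds, had 3 members higher in shoots and 5 lower of 11. GSTU18 differed by 3.75, and GSTU25 by -3.64. Of 47 glycosyltransferases of the UGT families 10 were higher and 13 lower, from UGT88A1 (3.03) to UGT76B1 (-3.51) and UGT71C1 (-4.18). Trichome birefringence-like proteins, many of which acetylate wall polymers, had 3 higher, with TBL45 at 2.78, and 8 lower, with TBL39 at -2.8, of 24. Cytochromes P450 had 10 higher and 5 lower of 39, with CYP97A3, of carotenoid synthesis (2.96), and CYP71B22 (2.96) on the shoot side and CYP71B37 (-2.42) on the root side. The share called over all probe sets was 23.4%.

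The 56 mitochondria-encoded probe sets, of which none was called at +Pi, had 20 called higher in shoots at -Pi (beside 12.2% of all probe sets) and 16 whose organ difference was called unequal at the 2 Pi levels (beside 10.5%). Their mean signal was 4.74, 4.92 and 4.83 in wild type shoots at -Pi and 4.08, 4.21 and 4.06 in roots at -Pi. At +Pi it was 4.36, 4.35 and 4.34 in shoots and 4.16, 4.23 and 4.72 in roots.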
